A study of Homo sapiens with 12 samples.

Results

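The genes described here are 5 genes of mitophagy, the removal of mitochondria by autophagy: the receptors BNIP3, BNIP3L (also known as NIX), FUNDC1 and FKBP8, and the kinase gene PINK1. They were chosen by gene symbol, and all 5 were found among the 25369 genes of the deposited tables. Poly(A)+ RNA was sequenced from 3 human cancer cell lines, RKO (colon carcinoma), A549 (lung adenocarcinoma) and H460 (large cell lung carcinoma), held for 24 h either in normoxia or in hypoxia at 1% O2. There were 2 replicates in each of the 6 groups of line and oxygen condition, 12 libraries in all, with no gene edited and no drug added. RKO and A549 cells grew in DMEM and H460 cells in RPMI, so that for H460 the medium and the line cannot be told apart.

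BNIP3, BNIP3L, FUNDC1 and FKBP8 are proteins of the outer mitochondrial membrane that carry a short motif binding the ATG8 family proteins (LC3 and GABARAP), which sit on the membrane of the forming autophagosome. A receptor of this kind links a mitochondrion directly to the autophagic membrane. PINK1 is a kinase that builds up on damaged mitochondria and recruits the ubiquitin ligase Parkin, encoded by PARK2, after which ubiquitin-binding adaptors such as OPTN make the link. BNIP3 and BNIP3L are long known as genes switched on in low oxygen, through the hypoxia-inducible factors (HIFs).

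The libraries held between 27350424 and 41757584 counted reads. Levels of one gene across libraries are given as CPM, read counts over a library size scaled by the trimmed mean of M values (TMM), and levels of different genes within a library as the deposited RPKM, which divides by gene length. Of 6 genes known to respond to hypoxia, RKO had 5 of 5 tested called higher, where 18.8% of all tested genes were. A549 had 5 of 6 (2.22% of all tested genes), and H460 had 6 of 6 (24.6%). The exceptions were EGLN3, too low to test in RKO, and ANKRD37 in A549 (1.87 ± 0.48 on the log2 scale, adjusted p = 0.111). Lineage markers were sparse. Of 4 colon markers only CDX2 reached 1 RPKM in RKO, while CDH17, KRT20 and VIL1 did not, and of 5 lung markers only NAPSA did so in A549 and only NKX2-1 in H460, in hypoxia. Epithelial markers were found in each line, although CDH1 stayed under 1 RPKM in RKO and H460 and EPCAM in H460. Of 5 fibroblast, endothelial and leukocyte markers, 1 reached 1 RPKM in RKO (CD68), 2 in A549 and 3 in H460. The leukocyte gene PTPRC and the endothelial gene PECAM1 stayed under 1 RPKM in every library.

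Promoter sequences from RefSeq (GRCh38.p14), here windows of 300 bases around the annotated start, were at hand for BNIP3 and FUNDC1 and not for BNIP3L, PINK1 or FKBP8. Both windows at hand are shown, whatever the response of the gene. The BNIP3 window is chr10:131981874-131982173 and the FUNDC1 window chrX:44542810-44543109, both on the minus strand and printed 5′ to 3′. Capitals mark the core letters of the HIF binding motif, ACGTG or GCGTG, on either strand, so that CACGT and CACGC mark the other strand.
BNIP3: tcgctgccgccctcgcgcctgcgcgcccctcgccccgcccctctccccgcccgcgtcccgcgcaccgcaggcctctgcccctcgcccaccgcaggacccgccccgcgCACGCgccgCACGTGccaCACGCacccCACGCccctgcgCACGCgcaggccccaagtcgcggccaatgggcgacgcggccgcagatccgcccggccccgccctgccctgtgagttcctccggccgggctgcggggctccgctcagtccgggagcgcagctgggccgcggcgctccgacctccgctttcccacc
FUNDC1: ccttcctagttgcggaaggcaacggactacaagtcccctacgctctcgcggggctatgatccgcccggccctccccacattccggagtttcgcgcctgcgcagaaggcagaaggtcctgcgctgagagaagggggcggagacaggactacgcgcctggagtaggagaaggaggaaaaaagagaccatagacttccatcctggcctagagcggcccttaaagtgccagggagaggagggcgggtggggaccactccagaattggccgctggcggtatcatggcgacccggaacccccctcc
The BNIP3 window held 6 motif positions, all between 143 and 104 bases before the start, including a CACGTG in which both strands match and overlap. Of 35116 RefSeq promoter windows of this kind, 48.4% held at least 1 such motif and 0.923% held at least 6 positions. The FUNDC1 window held 0. The BNIP3 window was also dense in CG dinucleotides, with 48, a number reached by 1.98% of windows (median 14), whereas the FUNDC1 window held 21. A motif match describes the letters of a window and shows neither binding nor its absence.

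In GRCh37 coordinates, BNIP3 lies on chromosome 10 from 133781204 to 133795435 (minus strand, 6 exons) and BNIP3L on chromosome 8 from 26240523 to 26270644 (plus strand, 6 exons). FUNDC1 lies on chromosome X from 44382885 to 44402221 (minus strand, 5 exons), PINK1 on chromosome 1 from 20959948 to 20978004 (plus strand, 8 exons) and FKBP8 on chromosome 19 from 18642568 to 18654383 (minus strand, 9 exons). PINK1 overlaps the antisense gene PINK1-AS, which the strand-specific counting kept apart. The GENCODE annotation of GRCh37 names 44 BNIP3 pseudogenes, of which 0 are in the deposited table. Reads that match such a copy as well as the gene have a low mapping quality and were removed by the authors, and the effect of this on the BNIP3 counts was not tested.

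BNIP3 was close to undetected in RKO and abundant in both lung lines. In RKO the BNIP3 counts were 11 and 31 in normoxia and 11 and 14 in hypoxia, or 0.292 and 0.778 CPM and 0.271 and 0.373 CPM. In A549 the BNIP3 level was 67.2 and 53.1 CPM in normoxia and 216.0 and 208.3 CPM in hypoxia. In H460 it was 93.4 and 73.9 CPM in normoxia and 816.0 and 776.2 CPM in hypoxia. All 8 libraries of the lung lines thus lay far above all 4 of RKO, and in both lung lines the hypoxia libraries lay above the normoxia libraries without overlap. Since the near absence of BNIP3 in RKO was known when the genes were chosen, it is given as a description and without a test against the other lines. As the RNA came from whole cultures, fewer cells with BNIP3 mRNA and less of it per cell cannot be told apart.

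From low to high, the group means of BNIP3 were RKO hypoxia, RKO normoxia, A549 normoxia, H460 normoxia, A549 hypoxia and H460 hypoxia, and the 2 RKO groups overlapped while no other neighbours did. Ranked by RPKM among the 25369 genes, BNIP3 stood at 133 and 136 in the H460 hypoxia libraries and between 11989 and 13319 in RKO. BNIP3 rose 3.49-fold in A549 (log2 fold change 1.80 ± 0.19, SE, edgeR quasi-likelihood test, Benjamini-Hochberg adjusted p = 0.00441) and 9.42-fold in H460 (3.24 ± 0.12, adjusted p = 2.09e-09). In RKO it fell below the minimum of 0.5 CPM in at least 2 libraries and was not tested. Without that minimum the RKO difference was -0.80 ± 0.58 on the log2 scale (edgeR adjusted p = 0.345), and in the fit of all 12 libraries it was -0.75 ± 0.43 (adjusted p = 0.201).

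**Figure D1:**
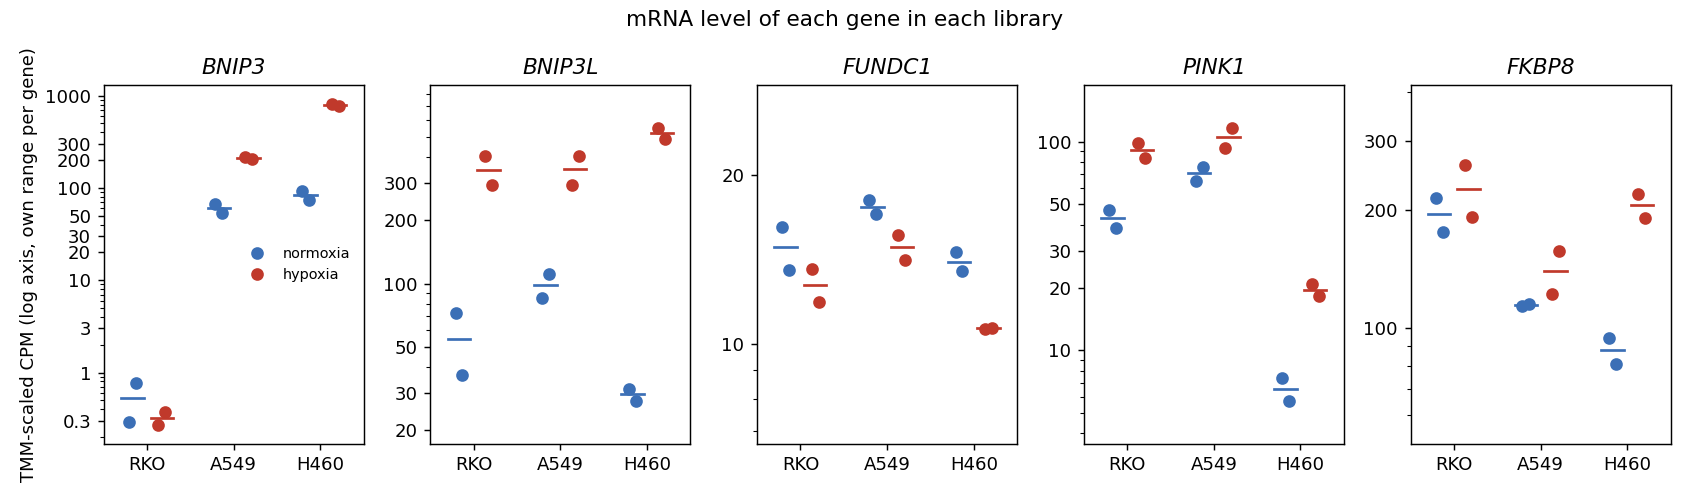
TMM-scaled CPM (log axis, with its own range for each gene) of the 5 genes in each library, by cell line, with normoxia in blue, hypoxia in red and a bar at the mean of the 2 replicates. BNIP3 stayed under 1 CPM in all 4 RKO libraries, whereas BNIP3L reached 293.2 and 403.6 CPM in the RKO hypoxia libraries.

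BNIP3L, the closest relative of BNIP3, responded in all 3 lines, RKO included. In RKO the BNIP3L level went from 72.7 and 36.5 CPM in normoxia to 403.6 and 293.2 CPM in hypoxia. The A549 libraries were at 85.2 and 110.9 CPM in normoxia and at 294.7 and 404.3 CPM in hypoxia. Those of H460 were at 31.6 and 27.6 CPM and at 552.2 and 486.5 CPM. Normoxia and hypoxia libraries did not overlap in any line, which is given as a description, as for BNIP3. H460 had the lowest level in normoxia and the highest in hypoxia, and the hypoxia groups of RKO and A549 overlapped almost entirely (means 348.4 ± 78.1 and 349.5 ± 77.5 CPM, SD, n = 2 each).

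BNIP3L rose 6.11-fold in RKO (log2 fold change 2.61 ± 0.29, edgeR adjusted p = 0.000181), 3.53-fold in A549 (1.82 ± 0.22, adjusted p = 0.00609) and 17.4-fold in H460 (4.12 ± 0.11, adjusted p = 3.96e-10). The A549 value was the least firm, since limma on RPKM without a filter gave 1.72 with an adjusted p of 0.180. The rise in H460 exceeded that in RKO by 1.46 ± 0.38 (adjusted p = 0.0104) and that in A549 by 2.30 ± 0.38 (adjusted p = 0.000838) on the log2 scale, in the edgeR fit of all 12 libraries. The first of these calls was lost with limma on RPKM without a filter (1.00, adjusted p = 0.109), and without RKO normoxia replicate 1 the difference was 0.86 (adjusted p = 0.0691). Between A549 and RKO the difference of -0.84 ± 0.38 was not called (adjusted p = 0.181). That last value turned on the RKO normoxia libraries, at 72.7 and 36.5 CPM, and without RKO normoxia replicate 1 it was -1.43 (adjusted p = 0.0375).

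In normoxia BNIP3L was higher in A549 than in RKO by 0.84 ± 0.27 (edgeR adjusted p = 0.0120), lower in H460 than in RKO by -0.88 ± 0.27 (adjusted p = 0.00969) and lower in H460 than in A549 by -1.73 ± 0.28 (adjusted p = 9.13e-05), as log2 differences. Both differences from RKO rested on 1 RKO normoxia library. The first was 0.44 without replicate 2 (adjusted p = 0.148) and the second was -0.29 without replicate 1 (adjusted p = 0.329).

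The balance between BNIP3 and BNIP3L differed among the lines. Per length, BNIP3 made up 0.909% and 4.64% of the summed BNIP3 and BNIP3L RPKM in RKO normoxia, and 0.153% and 0.290% in RKO hypoxia. In A549 the BNIP3 share was 64.3% and 52.2% in normoxia and 62.6% and 54.0% in hypoxia. In H460 it was 87.1% and 85.9% in normoxia and 77.1% and 78.5% in hypoxia. BNIP3L was thus the main transcript of the pair in RKO, the A549 shares overlapped between conditions, and the H460 shares were lower in both hypoxia libraries than in both normoxia libraries.

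Put as a ratio of RPKM, BNIP3L exceeded BNIP3 in RKO by 109.1 and 20.6 times in normoxia and by 652.4 and 344.4 times in hypoxia, ratios that rest on 11 to 31 BNIP3 reads. In H460 BNIP3 exceeded BNIP3L by 6.75 and 6.10 times in normoxia and by 3.37 and 3.64 times in hypoxia. No test of these shares was run.

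The summed RPKM of BNIP3 and BNIP3L was 16.9 ± 7.16 in RKO normoxia and 107.1 ± 18.1 in RKO hypoxia (SD, n = 2), almost all of it BNIP3L. In A549 the sum of the pair was 71.0 ± 0.545 in normoxia and 233.4 ± 11.9 in hypoxia, and in H460 it was 65.5 ± 9.29 and 538.0 ± 5.30. The ratio of the hypoxia sum to the normoxia sum was 6.35 for RKO, 3.29 for A549 and 8.21 for H460. RPKM is scaled by library size alone. Beside TMM this shifts the median log2 fold change by -0.35 in H460, -0.09 in A549 and 0.08 in RKO. The ratios are therefore not on the scale of the edgeR fold changes, and both lung ratios lie below the folds of BNIP3 and BNIP3L. The RKO hypoxia sum exceeded both normoxia sums of the lung lines, while remaining below the hypoxia sums of both.

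**Figure D2:**
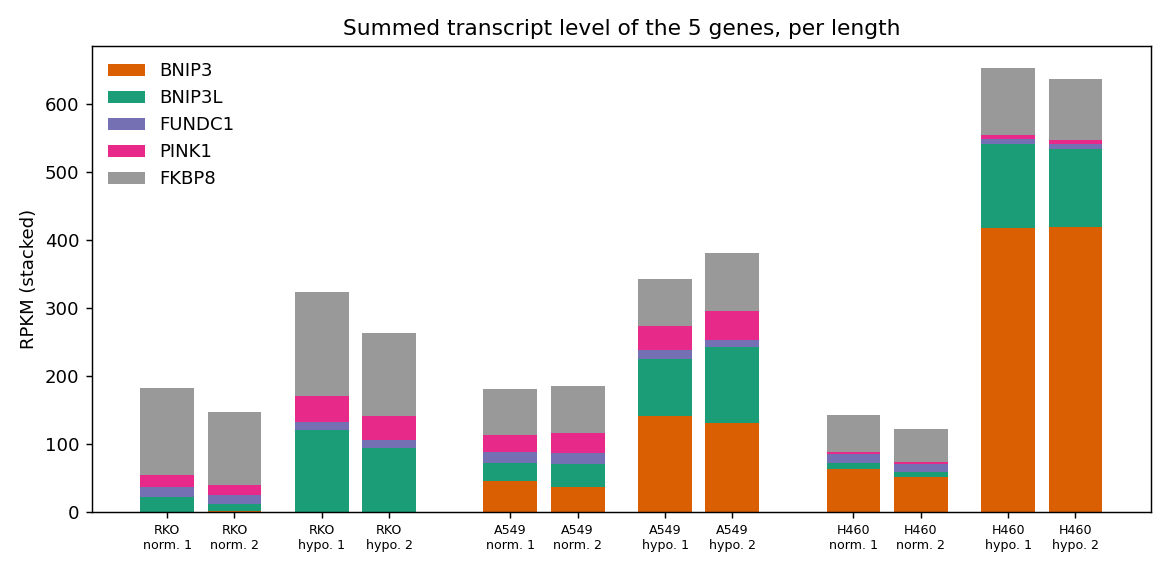
Deposited RPKM of the 5 genes stacked for each library, by line and oxygen condition. BNIP3 forms no visible part of the RKO bars and most of the H460 hypoxia bars, which reach 652.9 and 637.2 RPKM.

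FKBP8, an outer membrane protein of the FK506-binding family that also holds anti-apoptotic BCL2 proteins at mitochondria, was the most abundant of the 5 per length in normoxia in RKO and A549. In RKO the FKBP8 level was 215.2 and 175.4 CPM in normoxia and 260.7 and 191.6 CPM in hypoxia, and the conditions overlapped. In A549 it was 113.8 and 114.9 CPM against 122.3 and 157.2 CPM, and in H460 94.2 and 81.2 CPM against 219.9 and 191.2 CPM. In H460, therefore, hypoxia brought FKBP8 to a level overlapping that of RKO.

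FKBP8 rose 2.32-fold in H460 (log2 fold change 1.21 ± 0.10, edgeR adjusted p = 7.50e-07). The values in RKO (0.15 ± 0.18, adjusted p = 0.555) and A549 (0.27 ± 0.18, adjusted p = 0.485) did not pass, and the RKO value was -0.04 without RKO hypoxia replicate 1. The hypoxia effect in H460 exceeded that in RKO by 1.02 ± 0.25 (adjusted p = 0.00762) and that in A549 by 0.94 ± 0.25 (adjusted p = 0.0133). In normoxia FKBP8 was lower than in RKO in both lung lines, by -0.77 ± 0.18 in A549 (adjusted p = 0.00138) and -1.16 ± 0.18 in H460 (adjusted p = 4.69e-05) on the log2 scale.

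As a share of the summed RPKM of the 5 genes, FKBP8 went from 71.4% in RKO normoxia to 46.8% in RKO hypoxia, from 37.3% to 21.3% in A549 and from 39.1% to 14.5% in H460. BNIP3 took 42.8% of this sum in H460 normoxia and 64.9% in H460 hypoxia, and BNIP3L took 9.78% in RKO normoxia and 36.4% in RKO hypoxia. The mean sum itself, again scaled by library size alone, was 164.9 RPKM in RKO normoxia and 293.4 in RKO hypoxia. A549 had 183.1 and 362.1 RPKM in the same order, and H460 had 132.2 and 645.0 RPKM.

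FUNDC1, a receptor whose activity is known to be set by phosphorylation, had the narrowest range of the 5. The FUNDC1 level was 16.2 and 13.6 CPM in RKO normoxia and 13.6 and 11.9 CPM in RKO hypoxia, with the nearest libraries of the 2 conditions overlapping by a narrow margin. In A549 it was 18.1 and 17.02 CPM against 15.6 and 14.1 CPM, and in H460 14.6 and 13.5 CPM against 10.6 and 10.7 CPM. The hypoxia mean was below the normoxia mean in all 3 lines, and over the 12 libraries FUNDC1 ranged only from 10.6 to 18.1 CPM.

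None of these FUNDC1 differences was called. The log2 fold change was -0.29 ± 0.21 in RKO (edgeR adjusted p = 0.305) and -0.25 ± 0.21 in A549 (adjusted p = 0.597). In H460 it was -0.41 ± 0.13, which passed the adjusted p (0.0127) and not the fold change of 1.5. When H460 was scaled by library size alone, a choice that shifts the median of all genes by -0.35 in that line, FUNDC1 was at -0.76 and was called lower, as it was by limma on RPKM, which carries the same scaling.

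The mean PINK1 level was higher in hypoxia in each line, from very different starting levels, although the A549 difference was not called. The PINK1 level was 46.9 and 38.7 CPM in RKO normoxia and 98.9 and 83.9 CPM in RKO hypoxia. In A549 it was 65.0 and 75.7 CPM against 93.6 and 116.7 CPM, and in H460 7.34 and 5.72 CPM against 20.8 and 18.2 CPM. The conditions did not overlap in any line, again a description of 2 against 2 libraries. Even in hypoxia both H460 libraries stayed below every library of the other 2 lines.

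PINK1 rose 2.04-fold in RKO (log2 fold change 1.03 ± 0.17, edgeR adjusted p = 0.00106) and 2.96-fold in H460 (1.57 ± 0.15, adjusted p = 2.32e-06). The A549 value of 0.56 ± 0.18 was not called (adjusted p = 0.189), although it was when A549 hypoxia replicate 1 was left out (0.70, adjusted p = 0.0643). The effect in H460 exceeded that in A549 by 1.00 ± 0.25 (adjusted p = 0.0102), whereas the differences from RKO did not pass the threshold, at 0.49 ± 0.25 for H460 (adjusted p = 0.169) and -0.51 ± 0.24 for A549 (adjusted p = 0.206). With the replicate block both were called, at 0.49 (adjusted p = 0.0357) and -0.52 (adjusted p = 0.0390), and the A549 difference was also called with library size scaling (-0.64, adjusted p = 0.0902). The H460 difference was -0.11 with limma on log2(RPKM + 1).

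In normoxia PINK1 was 10.8-fold lower in H460 than in A549 (-3.43 ± 0.19 on the log2 scale, edgeR adjusted p = 1.99e-09) and lower by -2.72 ± 0.19 than in RKO (adjusted p = 1.16e-08). PINK1 made up 1.93% of the summed RPKM of the 5 genes in H460 normoxia and 0.914% in H460 hypoxia, the other lines lying between 10.1% and 16.3% in every library. The antisense gene PINK1-AS, looked at after its values were seen, went the other way in RKO, from 21.5 and 19.2 CPM to 14.95 and 12.27 CPM (-0.64 ± 0.20, adjusted p = 0.0269). That call was lost without RKO hypoxia replicate 1 (-0.46, adjusted p = 0.116), without RKO normoxia replicate 2 (-0.56, adjusted p = 0.172) and with library size scaling (-0.56, adjusted p = 0.0633, under the fold change of 1.5).

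**Figure D3:**
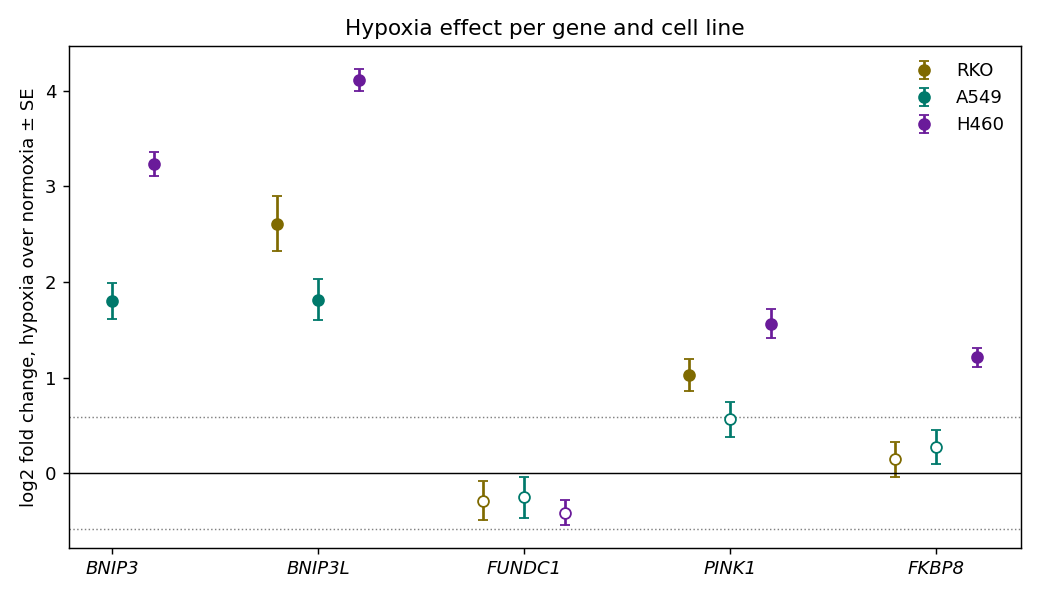
Log2 fold change of hypoxia over normoxia with its SE for the 5 genes in each line, from edgeR. Filled points were called (adjusted p under 0.1 and fold change over 1.5, the dotted lines), open points were not, and BNIP3 in RKO is missing because it was too low to test. BNIP3L is highest in H460 at 4.12, and the FUNDC1 points all lie just below 0.

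Counted together, 2 of the 4 tested members rose in RKO (BNIP3L and PINK1), 2 of 5 in A549 (BNIP3 and BNIP3L) and 4 of 5 in H460 (all but FUNDC1). The background of higher calls over all tested genes was 18.8% for RKO, 2.22% for A549 and 24.6% for H460, so that A549 had by far the lowest. By edgeR 0 members were called lower in any line (the background was 15.1%, 0.456% and 27.3%). At an unadjusted p under 0.05 the only lower member was FUNDC1 in H460, and DESeq2 also called 0 lower. For RKO, A549 and H460 in turn, the median log2 fold change of the tested members was 0.59, 0.56 and 1.57, beside medians of 0.01, -0.01 and -0.04 over all tested genes.

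The hypoxia effects were larger in H460 than in A549 for 4 of the 5 members, including BNIP3 at 1.43 ± 0.28 (edgeR adjusted p = 0.00233), where the hypoxia effect was called larger in H460 for 17.2% of all genes. Against RKO the larger effect in H460 was called for BNIP3L and FKBP8 among the 4 members other than BNIP3, beside 16.4% of all genes. Between A549 and RKO 0 of these 4 differed, where 14.6% of all genes were called in either direction. At an unadjusted p under 0.05 only BNIP3L differed there. BNIP3L was called lower in A549 with no low-count filter, with the replicate block and without RKO normoxia replicate 1, and PINK1 with the replicate block, with library size scaling and with limma on RPKM with the filter. In normoxia, where 60.2%, 61.9% and 52.1% of all genes were called for A549 against RKO, H460 against RKO and H460 against A549, FUNDC1 was called in none of the 3 pairs, with log2 differences of 0.24, -0.08 and -0.32 (adjusted p = 0.232, 0.680 and 0.122). BNIP3 in normoxia was higher in H460 than in A549 by 0.48 ± 0.20 (adjusted p = 0.0529), short of the fold change of 1.5, and it was called without A549 normoxia replicate 1 (0.65, adjusted p = 0.0274) or without H460 normoxia replicate 2 (0.64, adjusted p = 0.0458).

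Around these 5 genes, 41 others of the mitophagy machinery were read in 5 lists: other receptors, regulators of the receptors, the PINK1-Parkin pathway, adaptors and the ATG8 family. All 41 were in the tables. In RKO 7 of 39 tested genes rose and 4 fell, with a median log2 fold change of 0.05. In A549 0 of 39 were called by edgeR, while at an unadjusted p under 0.05 there were 1 higher and 2 lower, and DESeq2 called SQSTM1 lower. In H460 13 of 38 rose and 5 fell, with a median of 0.43. Scaling by library size changed that split to 7 and 7, with 14.7% of all tested genes then called higher and 40.9% lower. The background of all tested genes was the one given above, 18.8% higher and 15.1% lower in RKO, and 24.6% higher and 27.3% lower in H460. For A549 it was 2.22% higher and 0.456% lower, so that the 0 calls there lay near the background.

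Among the 6 other receptors only NLRX1, a mitochondrial protein of the NOD-like family, was called, and in opposite directions in RKO and H460. Over all tested genes 33.9% were called in either direction in RKO, 2.67% in A549 and 51.9% in H460. The NLRX1 level rose in RKO from a mean of 19.9 to 35.3 CPM (0.77 ± 0.17, edgeR adjusted p = 0.00509) and fell in H460 from 22.5 to 11.2 CPM (-1.02 ± 0.12, adjusted p = 9.49e-06), while in A549 its means were 44.01 and 45.82 CPM. The effects in RKO and H460 differed by -1.83 ± 0.21 (adjusted p = 5.86e-05), and the directions in these 2 lines were the same under each of the alternatives run.

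Of the 10 regulators of the receptors, 1 rose and 1 fell in RKO, where 18.8% and 15.1% of all tested genes did. In H460 5 of them rose and 1 fell, where 24.6% and 27.3% of all tested genes did. The one that fell in both was PGAM5, the mitochondrial phosphatase that acts on FUNDC1, at -1.10 ± 0.15 in RKO (edgeR adjusted p = 0.000528) and -2.15 ± 0.12 in H460 (adjusted p = 2.88e-08). The PGAM5 level went from 174.2 and 162.3 CPM to 87.6 and 76.2 CPM in RKO and from 81.4 and 74.7 CPM to 19.8 and 15.6 CPM in H460. ULK1, the kinase that starts autophagosome formation and also phosphorylates FUNDC1, rose in RKO (0.98 ± 0.19) and H460 (0.61 ± 0.10). The H460 call for ULK1 was lost with library size scaling, every limma fit and the fit of all 12 libraries. It was also lost without normoxia replicate 1 or hypoxia replicate 1. In H460 CSNK2A1, a catalytic subunit of casein kinase 2, rose by 0.97 ± 0.08 and MARCH5, a ubiquitin ligase of the outer membrane, by 1.08 ± 0.09, and both were among the genes still called with library size scaling.

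In the PINK1-Parkin list 3 of 11 tested genes fell in RKO and 0 rose, where 15.1% and 18.8% of all tested genes did. In H460 3 of 12 rose and 3 fell, close to the 24.6% and 27.3% over all tested genes. TOMM70A, a receptor of the mitochondrial import machinery, fell in RKO (-0.83 ± 0.16, edgeR adjusted p = 0.00243). OMA1, a protease of the inner membrane, fell in H460 (-1.11 ± 0.20, adjusted p = 0.000279). USP30, a deubiquitinase that opposes Parkin, rose in H460 (1.20 ± 0.11, edgeR adjusted p = 1.15e-06), as did USP8 (0.83 ± 0.08). The USP8 call was lost with library size scaling and every limma fit. The other genes that fell, in RKO and in H460 alike, were PARL (-0.61 and -0.76), the protease that cleaves PINK1, and the fusion protein gene MFN2 (-0.60 and -0.68). They are named here after their values were seen. Both RKO calls were lost with library size scaling, every limma fit and the fit of all 12 libraries. In RKO the MFN2 call was also lost without normoxia replicate 2 or hypoxia replicate 1, and the PARL call without normoxia replicate 1 or hypoxia replicate 1.

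PARK2 itself, also named after its values were seen, was scarce outside H460. The PARK2 counts were 0 to 3 per library in RKO and 6 to 60 in A549. In H460 the PARK2 level was 13.62 and 16.98 CPM in normoxia and 25.5 and 26.9 CPM in hypoxia (0.76 ± 0.13, edgeR adjusted p = 0.000203). That call was lost with library size scaling, every limma fit and the fit of all 12 libraries, and without H460 normoxia replicate 1. H460 was thus the line with the lowest PINK1 level and the highest PARK2 level, in both conditions.

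Of 6 adaptors OPTN and NBR1 rose in both RKO and H460, and 0 fell in those lines. Over all tested genes 18.8% rose and 15.1% fell in RKO, and 24.6% and 27.3% did in H460. In A549 0 adaptors were called by edgeR, where 2.22% of all tested genes were higher and 0.456% lower. SQSTM1 was called lower there in some of the alternatives. OPTN, an adaptor that binds ubiquitin and ATG8 proteins, went from 56.6 and 70.9 CPM to 118.6 and 164.5 CPM in RKO (1.09 ± 0.19, edgeR adjusted p = 0.00149) and from 4.46 and 5.71 CPM to 31.2 and 44.2 CPM in H460 (2.88 ± 0.18, adjusted p = 6.69e-08). The OPTN effect in H460 exceeded that in RKO by 1.74 ± 0.34 (adjusted p = 0.00205) in the fit of all 12 libraries. NBR1 rose by 0.71 ± 0.21 in RKO and 0.92 ± 0.09 in H460, and the H460 call was lost with library size scaling and every limma fit. Without RKO normoxia replicate 2 or RKO hypoxia replicate 1 NBR1 was not called in RKO.

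Of the ATG8 family, the proteins that the receptors bind, 3 of 6 tested genes rose in RKO and 3 of 4 in H460. The shares of all tested genes called higher were 18.8% in RKO and 24.6% in H460. GABARAPL2 rose in RKO from 49.1 and 59.3 CPM to 158.6 and 197.4 CPM (1.65 ± 0.17, edgeR adjusted p = 0.000132), while in H460 its value of 0.40 ± 0.11 did not reach the fold change of 1.5. GABARAPL1 rose in RKO (1.30 ± 0.26, adjusted p = 0.00307) and in H460 (1.53 ± 0.11, adjusted p = 2.20e-07). MAP1LC3B, the gene of the LC3 protein used as the usual marker of autophagosomes, rose in H460 (1.03 ± 0.09, adjusted p = 1.02e-06) and not at the threshold in RKO (0.38 ± 0.18, adjusted p = 0.124). MAP1LC3C passed the minimum level only in RKO, where it rose by 0.97 ± 0.34 from 44 and 59 counts to 106 and 107, a call lost without RKO normoxia replicate 2.

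**Figure D4:**
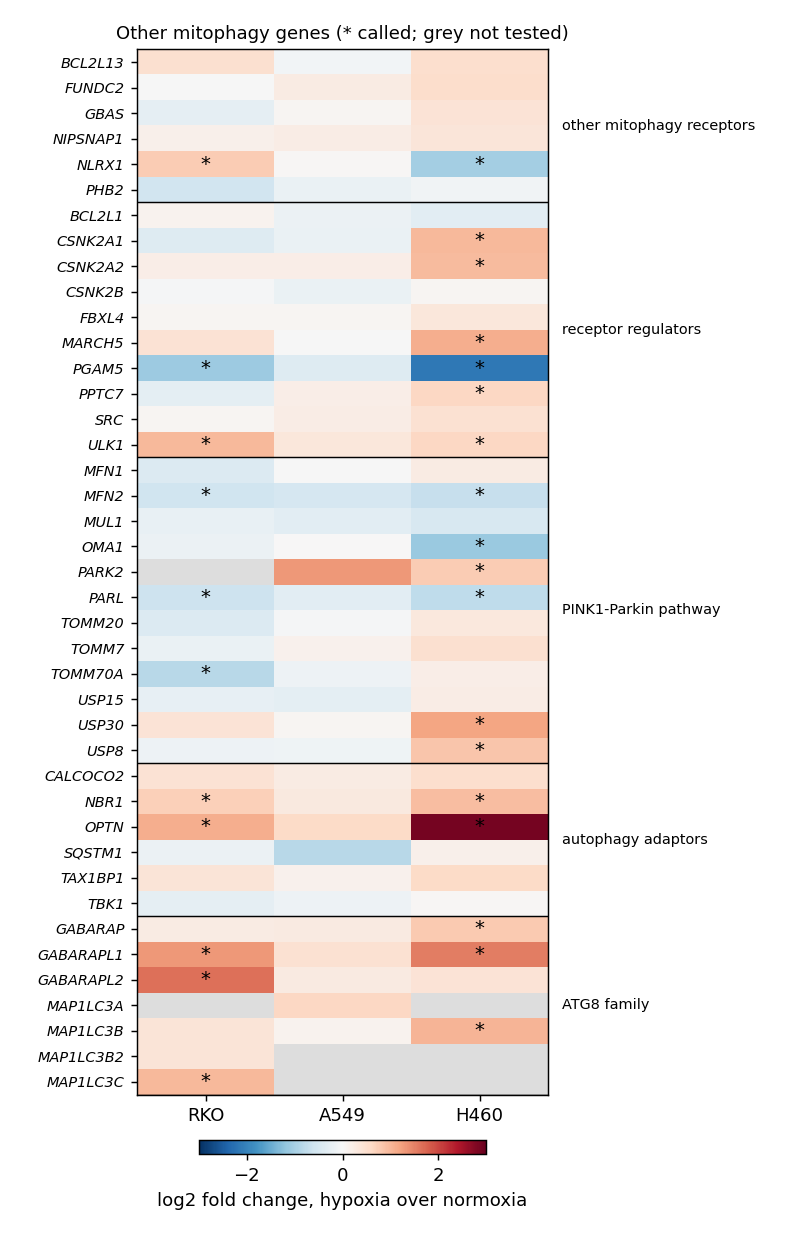
Log2 fold change of hypoxia over normoxia in each line (colour, blue lower and red higher) for the 41 other genes in 5 lists. Stars mark calls and grey cells genes too low to test. NLRX1 is starred in opposite colours in RKO and H460, and the A549 column has no star.

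In A549 the absence of calls depended on the fit and on 1 library. SQSTM1 was called lower with DESeq2, with no low-count filter and in the joint fit, and with the replicate block SQSTM1 was called lower and MAP1LC3A and PARK2 higher. Without A549 hypoxia replicate 1, GABARAPL1, OPTN, PARK2 and ULK1 were called higher and MFN2, PGAM5 and SQSTM1 lower, 7 calls in place of 0, and the number of calls over all genes rose from 381 to 1083 higher and 752 lower. SQSTM1, the adaptor p62, was at 1152 and 1194 CPM in A549 normoxia and at 556.3 and 775.6 CPM in hypoxia (-0.83 ± 0.21, edgeR adjusted p = 0.104).

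The mRNAs of the HIF alpha subunits differed in their own way. HIF1A fell in RKO (-1.75 ± 0.16, edgeR adjusted p = 7.71e-05) and A549 (-1.16 ± 0.23, adjusted p = 0.0494) and was at -0.14 ± 0.11 in H460 (adjusted p = 0.247). EPAS1, the gene of HIF2A, was higher in hypoxia by 1.29 ± 0.25 in RKO (adjusted p = 0.00281) and by 1.42 ± 0.09 in H460 (adjusted p = 9.18e-08), and was at -0.08 ± 0.23 in A549 (adjusted p = 0.900). RKO had the lowest levels of both genes, without overlap with the other lines. HIF1A ranged from 44.2 to 158.6 CPM over the 4 RKO libraries and was at 188.0 CPM or more in every A549 and H460 library. EPAS1 ranged from 7.13 to 25.6 CPM in RKO and was at 106.8 CPM or more in the other lines. In normoxia both subunit genes were called higher in A549 and in H460 than in RKO, as were 34.1% and 34.7% of all tested genes. The part of these levels in the BNIP3 values was not tested. Protein levels were not measured in these files.

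The genes whose levels followed each member most closely over the 12 libraries were found by Pearson's r of log2(CPM + 0.5) among 15590 genes. For BNIP3 they were SLC22A17 (r = 0.992), KIAA1462 (0.992), TUBB2B (0.991), SEMA3B (0.989) and EVL (0.989). All had mean levels of at most 1.10 CPM in both RKO groups, a likeness that comes with choosing them by r with BNIP3. KIAA1462, for example, had means of 0.0893 and 0.0913 CPM in RKO, 18.2 and 65.2 CPM in A549 and 41.6 and 114.9 CPM in H460, for normoxia and hypoxia. For BNIP3L they were PLEKHA2 (0.979), RSPH3 (0.973), DNAJB2 (0.969), ALKBH5 (0.969) and LRP1 (0.966). LRP1, an endocytic receptor, had normoxia and hypoxia means of 67.3 and 403.6 CPM in RKO. The A549 means were 75.7 and 400.5 CPM, and those of H460 30.9 and 811.9 CPM.

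The closest genes were COPS3 (r = 0.946) and GPS1 (0.945) for FUNDC1, both subunits of the COP9 signalosome, and CAPN5 (0.990) and FGFR1 (0.988) for PINK1. For FKBP8 they were UBXN6 (0.990) and MKRN1 (0.986). The 12 libraries come from only 6 groups, and libraries of a group share line and condition, so these correlations describe the pattern over groups and carry no p.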

How the data were processed

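Strand-specific, single-end RNA-seq libraries from poly(A)+ RNA were grouped by the labelled cell line and oxygen condition, and the design text calls the replicates biologically independent. The authors aligned reads with TopHat2 2.0.13 to GRCh37/hg19. They then dropped reads of low mapping quality, used Picard for duplicates and counted exon reads by strand with HTSeq 0.6.1, as their methods and the submitters' processing notes state. The main tests used the deposited counts per gene. RPKM values, which the authors deposited as well, served for comparing genes within a library, for the sums of genes and for alternatives. There were 0 unused columns of sample values. Gene positions are those of the deposited RPKM table, whose starts count from 0 and were moved to 1-based positions, exon numbers are from GENCODE on GRCh37, and promoter windows are from RefSeq on GRCh38.p14.

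A separate fit per line to its 4 libraries was made in R 4.3.3 with the quasi-likelihood test of edgeR 4.0.16 and TMM factors, over genes above 0.5 CPM in at least 2 libraries. Genes were called at a Benjamini-Hochberg adjusted p under 0.1 and a fold change over 1.5, the thresholds of the study, whose own calls used DESeq2. One fit of all 12 libraries gave the differences of hypoxia effects between lines (adjusted p alone) and the normoxia differences. Errors beside log2 differences are SE, taken in edgeR as the absolute log2 difference divided by the square root of the F statistic. Errors beside levels are SD with n = 2. With 2 replicates the median SE of a log2 fold change was 0.184 for RKO, 0.223 for A549 and 0.114 for H460. Alternatives were DESeq2 1.42.0, RLE factors, library size, other filters, a replicate block, limma 3.58.1 on log2(RPKM + 0.1) and log2(RPKM + 1), the joint fit and leaving out each replicate.

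The members and lists were chosen with earlier results of these data known. From the lists, genes called alike in all lines tested or oppositely in 2 lines, and at most 4 per list with the largest fold change among those called, were named, and others are marked in the text.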

Additional observations from a re-analysis of the deposited data

Results flagged for a closer look

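With the comparisons of BNIP3 against RKO left out, for 6 results the hypoxia effect differed between 2 lines in the edgeR fit of all 12 libraries. BNIP3L rose more in H460 than in RKO, by 1.46 on the log2 scale (adjusted p = 0.0104), and more in H460 than in A549, by 2.30 (adjusted p = 0.000838). BNIP3 rose more in H460 than in A549 by 1.43 (adjusted p = 0.00233), with both hypoxia libraries above both normoxia libraries in each line. FKBP8 differed by 1.02 between H460 and RKO (adjusted p = 0.00762) and by 0.94 between H460 and A549 (adjusted p = 0.0133). Both FKBP8 hypoxia libraries were higher in H460 and, without a call, in A549, and the conditions overlapped in RKO. PINK1 differed by 1.00 between H460 and A549 (adjusted p = 0.0102). In all 6 the effect was larger in H460, which also differed from the other lines in medium and in having 51.9% of its tested genes called. Among all genes 37.6% differed in effect between H460 and RKO and 36% between H460 and A549. Scaling H460 by library size alone shifts its median fold change by -0.35, and the size of these differences moves with it.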

How the results depend on the processing

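Most values kept their direction and their side of the threshold. Of the counts and shares, 402 recomputed values were labelled close to the reported ones and 36 moved. Of the single-gene differences, 702 were the same, 20 became called, 4 lost the call and 16 changed sign. The BNIP3 shares could not be labelled moved when 1 of 2 replicates was left out, as the limit was their own SD. In RKO normoxia such a share was 0.909% or 4.64%, beside a mean of 2.77%. The shares recomputed from counts per gene length were nearly the RPKM shares again. With 2 replicates per group, single libraries weigh heavily, and BNIP3 in RKO rests on 11 to 31 reads. The cause of the changes below was not tested.

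In RKO the mitophagy genes called lower were 2 in place of 4 with library size, the joint fit and all 3 limma fits. In A549 limma without a filter called 1 member higher in place of 2. Mitophagy genes called in A549 rose from 0 to 2 higher and 1 lower with the replicate block, and 1 was lower with DESeq2, no filter or the joint fit. When 1 replicate was left out they ranged from 0 to 4 higher and from 0 to 3 lower. In H460 1 member was called lower in place of 0 (FUNDC1) with library size and all 3 limma fits, and the mitophagy genes called higher were 7 in place of 13 with library size and limma at 0.1, filtered or not, and 6 with limma at 1.

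For the difference of hypoxia effects between A549 and RKO, 1 member in place of 0 was called lower with library size and limma at 0.1 or 1 (PINK1) and with no low-count filter (BNIP3L), 2 with the replicate block, and 0 to 1 without single replicates (BNIP3L without RKO normoxia replicate 1). Between H460 and RKO limma without a filter called 1 member higher in place of 2, and library size and all limma fits called 1 lower. Between H460 and A549 limma without a filter called 1 lower. For normoxia, leaving out single replicates gave 1 to 2 members higher in A549 than in RKO and 0 to 1 higher in H460 than in A549.

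Changes of sign touched only values that were not called. FKBP8 in RKO ranged from -0.037 to 0.36 without single replicates. The A549 minus RKO difference of effects for FUNDC1 was 0.024 with DESeq2 and with RLE factors and ranged from -0.15 to 0.11 without single replicates, and for FKBP8 it was -0.048 with library size, -0.051 with limma at 0.1 with or without the filter and -0.052 with limma at 1, and ranged from -0.14 to 0.32. The H460 minus RKO difference for PINK1 was -0.11 with limma at 1. FUNDC1 in normoxia, H460 minus RKO, ranged from -0.20 to 0.062.

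The labels do not say that equal replicate numbers mark a shared batch, and each line has 2 pairs. Deviations of equally numbered libraries correlated at 0.339 in RKO, 0.362 in A549 and 0.132 in H460. With the replicate block the A549 minus RKO difference of effects was -0.91 for BNIP3L (adjusted p = 0.00716) and -0.52 for PINK1 (adjusted p = 0.0390), and the H460 minus RKO difference for PINK1 was 0.49 (adjusted p = 0.0357), all then called. Over all genes the block moved the A549 calls from 316 higher and 65 lower to 1189 and 723.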

Other observations

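Among the lineage markers, NKX2-1, a transcription factor of lung epithelium, had 0 and 2 counts in the H460 normoxia libraries and 87 and 98 in the H460 hypoxia libraries (edgeR adjusted p = 4.69e-07), and 0 counts in every RKO library. PINK1-AS was lower in normoxia in both lung lines than in RKO, by -1.63 in A549 and -1.80 in H460 on the log2 scale.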
